A study of Mus musculus with 6 samples.

Results

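Matricellular proteins are secreted into the matrix around cells, where most of them act on cell adhesion, migration and growth factor activity more than they bear load. The 10 genes described here encode periostin (Postn), tenascin-C (Tnc), tenascin-X (Tnxb), thrombospondins 1, 2 and 3 (Thbs1, Thbs2, Thbs3), osteonectin (Sparc), osteopontin (Spp1), fibronectin (Fn1) and extracellular matrix protein 1 (Ecm1). They were taken by name as proteins of healing tissue, with no measured value in the rule but with earlier results of these data known. They make up 10 of the 22483 genes in the table. All 10 were found there, and all 10 passed the filter on low values that left 15532 genes for testing. With that filter set on normalized counts 9 passed, all but Tnxb.

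Stromal cells were sorted from hind limb muscle of young adult Swiss white mice, 3 days after injury with cardiotoxin (20 uM), a toxin of snake venom by which muscle fibers are destroyed, or from the untreated muscle of the other leg. The injured groups were CD140a(-)/Sca1(+), CD140a(+)/Sca1(-) and CD140a(+)/Sca1(+) cells, and the control groups were the same 3 subpopulations. CD140a is the receptor encoded by Pdgfra and Sca1 is encoded by Ly6a, and together they mark the fibro-adipogenic precursors (FAPs) of muscle. All cells had first been gated as negative for CD45, CD31 and CD11b, a gate meant to exclude leukocytes and endothelium. Both legs came from mice with no stated genetic change, and each of the 6 groups was 1 RNA-seq library. The injected muscle is the tibialis anterior in the labels but the gastrocnemius and soleus in the methods of the study, so which was sorted is not settled. How many mice went into a library is not given in the sources used here. So the 3 subpopulations served as the replicates of injury, and any p-value below measures the spread between sorts and not between mice.

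In healing muscle, tenascin-C and fibronectin are laid down early as a provisional matrix on which precursor cells move. Periostin and osteonectin bind collagen and are abundant where collagen is being deposited. Thrombospondins 1 and 2 bind CD47 and CD36 on cells and restrain vessel growth, and osteopontin is an integrin and CD44 ligand that is also made by macrophages.

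Library depth and label checks set how firmly these genes can be read. Values are given as normalized counts, which are deposited log2 values turned back to the linear scale, and the recovered depth lay between 2094353 and 14173590 reads per library. The injured CD140a(+)/Sca1(-) library had the lowest depth and listed 69.1% of genes at 0, against 28.2% to 39.0% in the other 5 libraries. Of 5274 genes that reached 20 normalized counts in all of the other 5, 928 were at 0 in it. Ly6a was lowest in the Sca1(-) sort in both states, at 2.09 normalized counts in injured and 70.4 in control cells. Pdgfra went against a label: the control library labelled CD140a(-)/Sca1(+) had 211 normalized counts, above the 33.6 and 26.3 of the control libraries labelled CD140a(+)/Sca1(-) and CD140a(+)/Sca1(+). In the injured cells Pdgfra stood at 335, 203 and 1240 normalized counts in the same order of sorts. There too the CD140a(-)/Sca1(+) library was above the CD140a(+)/Sca1(-) library, against the labels, though below the CD140a(+)/Sca1(+) library. Differences between subpopulations are therefore given below for the libraries as labelled. The study reported its lowest sorting enrichment for control CD140a(+)/Sca1(+) cells. In that library endothelial markers took 0.121% and red blood cell markers 0.587%, the highest shares of any library. FAP markers took 0.158% of it, the lowest share. What this does to folds against that library, such as those of Tnc and Thbs3, was not tested.

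Within each list of 3 values the sorts are named in the order CD140a(-)/Sca1(+), CD140a(+)/Sca1(-), CD140a(+)/Sca1(+). Expression of matricellular genes was higher after injury almost throughout. Under the test used, limma with the subpopulation as a block, a gene was called at p under 0.05 and a change of at least 3-fold. By that rule 7 of the 10 genes rose (Postn, Tnc, Thbs2, Thbs3, Spp1, Fn1, Ecm1) and none fell, where 2.30% of all genes tested rose and 3.46% fell. The median change of the 10 was 2.67 on the log2 scale, against -0.33 for all genes tested. In 9 of the 10 the injured library exceeded its control in every sort, which held for 7.92% of genes tested, and the exception was Tnxb, at 0 in both CD140a(+)/Sca1(-) libraries. In 8 of the 10, all but Tnxb and Thbs1, the lowest injured library was above the highest control library, as it was for 4.18% of genes tested. After Benjamini-Hochberg adjustment 0 genes (0%) had an adjusted p under 0.05 in limma, although 7.99% of genes tested (1241) had an unadjusted p under 0.05. Adjusted p-values of the 10 genes ran between 0.192 and 0.682.

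**Figure D1:**
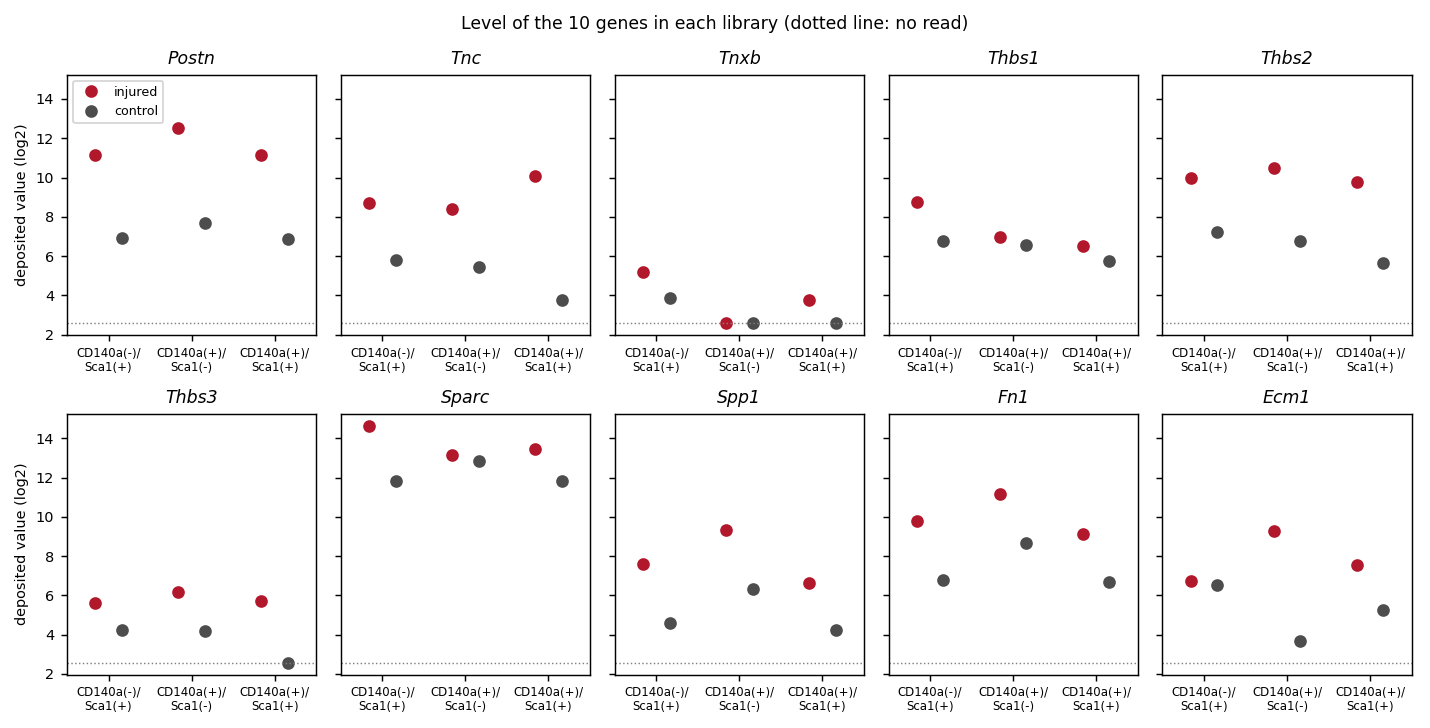
Deposited log2 value of the 10 genes in each library, 1 panel per gene and 1 pair of points per subpopulation, injured (red) left of control (grey), with a dotted line at the value of 0 reads. Postn lay between 11.13 and 12.53 in injured cells, against 6.87 to 7.67 in control cells, while the injured and control points of Thbs1 overlapped.

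Postn showed the largest change of the group. The gene lies at chr3:54361109-54391037 on the plus strand (GRCm38). Periostin is secreted by fibroblasts and osteoblasts, binds collagen and integrins, and helps collagen fibrils cross-link. It stood at 2237, 5919 and 2267 normalized counts in injured CD140a(-)/Sca1(+), CD140a(+)/Sca1(-) and CD140a(+)/Sca1(+) cells, against 109, 192 and 106 in the control cells. All 3 injured libraries were thus far above all 3 control libraries. The fold was 20.5, 30.8 and 21.5 in the 3 sorts, each with no replicate. In limma the change was 4.45 ± 0.49 on the log2 scale (SE, 3 pairs; adjusted p = 0.192), the 3rd largest increase among the genes tested. In both states the CD140a(+)/Sca1(-) library was highest, and the other two did not differ beyond their 95% counting intervals (2201 to 2272 and 2200 to 2336 in injured cells, 100.2 to 118 and 87.8 to 127 in control cells). These exact Poisson intervals cover counting error only.

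Tnc rose, most of all in CD140a(+)/Sca1(+) cells. It is encoded at chr4:63959785-64047015 (minus strand, GRCm38). Tenascin-C is a large hexameric glycoprotein that weakens the hold of cells on fibronectin and is scarce in resting adult muscle. It stood at 401, 326 and 1082 normalized counts in injured cells, against 45.3, 32.3 and 4.44 in control cells. The order of the sorts turned over: CD140a(+)/Sca1(+) was the lowest control library, with 5 reads, and the highest injured one. The fold was 8.84, 10.1 and 244, the last with a counting interval of 105 to 756. The limma change was 4.05 ± 0.80 (SE, 3 pairs; adjusted p = 0.383), and without the CD140a(+)/Sca1(+) pair it was 2.91 and still past the threshold.

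Thbs2 rose, with at least 7.27-fold in every sort. It is encoded at chr17:14665500-14694235 (minus strand, GRCm38). Thrombospondin 2 is made mainly by fibroblasts, limits angiogenesis and, as mouse knockouts show, is needed for orderly collagen fibrils. It stood at 1011, 1422 and 855 normalized counts in injured cells, against 139, 97.0 and 39.7 in control cells. The fold was 7.27, 14.7 and 21.5, and the limma change was 3.53 ± 0.52 (SE, 3 pairs; adjusted p = 0.261). In injured cells CD140a(+)/Sca1(-) was highest, whereas in control cells it was CD140a(-)/Sca1(+), and the counting intervals of the 3 sorts did not overlap in either state.

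The start regions of these genes are shown for Postn, Tnc and Thbs2, which changed most over the 3 sorts, and for Ecm1, which changed most in CD140a(+)/Sca1(-) cells. RefSeq windows of 300 bases (GRCm38.p6, 250 bases before to 50 after an annotated start) were at hand for 8 of the 10 genes, 11 windows in all, and for neither Thbs1 nor Fn1. Capitals mark matches to TATAAA (the TATA box) or TGANTCA (the AP-1 site), searched on both strands with GGAATG (TEAD), GTCTAGAC (SMAD) and TGTGGT (RUNX). The windows lie at chr3:54360857-54361156 (plus strand, Postn), chr4:64046966-64047265 (minus strand, Tnc), chr17:14694213-14694512 (minus strand, Thbs2) and chr3:95739520-95739819 (minus strand, Ecm1).
Postn: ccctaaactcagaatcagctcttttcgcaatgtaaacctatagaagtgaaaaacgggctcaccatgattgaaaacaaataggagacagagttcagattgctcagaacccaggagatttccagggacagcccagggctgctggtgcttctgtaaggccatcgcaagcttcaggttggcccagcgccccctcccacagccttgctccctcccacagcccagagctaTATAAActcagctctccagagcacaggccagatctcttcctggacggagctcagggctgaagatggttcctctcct
Tnc: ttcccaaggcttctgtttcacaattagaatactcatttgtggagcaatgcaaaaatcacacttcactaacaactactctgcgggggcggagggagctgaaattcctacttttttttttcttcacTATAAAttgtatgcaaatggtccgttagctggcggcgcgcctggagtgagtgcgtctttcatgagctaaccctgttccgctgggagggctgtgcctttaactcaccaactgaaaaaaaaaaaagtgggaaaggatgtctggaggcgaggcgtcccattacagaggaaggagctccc
Thbs2: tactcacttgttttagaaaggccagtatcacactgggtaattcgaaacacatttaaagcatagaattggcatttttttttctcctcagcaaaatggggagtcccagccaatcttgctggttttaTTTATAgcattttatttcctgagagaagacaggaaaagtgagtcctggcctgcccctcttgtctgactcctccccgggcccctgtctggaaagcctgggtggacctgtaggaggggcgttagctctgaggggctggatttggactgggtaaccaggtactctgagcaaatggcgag
Ecm1: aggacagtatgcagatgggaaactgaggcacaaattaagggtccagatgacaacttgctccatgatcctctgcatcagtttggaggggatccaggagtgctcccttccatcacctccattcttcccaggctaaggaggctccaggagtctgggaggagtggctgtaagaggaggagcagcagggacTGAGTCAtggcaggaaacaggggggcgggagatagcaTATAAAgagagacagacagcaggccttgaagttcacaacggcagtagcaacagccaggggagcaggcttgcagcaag
The TATA letters began at position -26 in Postn and -27 in Ecm1, counted from the annotated start, and at -126 in both Tnc and Thbs2. They were present in 6 of the 11 windows (in 5 of the 8 genes, the 4 shown and Spp1) and in 13.6% of the 32851 mouse windows of this length. A second window of Tnc overlaps the one shown and held the same site at -205, so that site is counted in both. A second window of Postn held none. The AP-1 letters occurred in 2 genes, Tnxb at -55 and Ecm1 at -64, and in 7.81% of all windows. The RUNX letters occurred in Sparc and Spp1 (16.8% of all windows), and neither the TEAD letters (14.7%) nor the SMAD letters (0.213%) were in any window of the 8 genes. A match is a string of letters and not a bound site.

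Thbs1 did not pass the threshold. The gene lies at chr2:118111876-118127133 on the plus strand (GRCm38). Thrombospondin 1 binds and activates latent TGF-beta, and is also a major protein of platelet granules. It stood at 421, 116 and 79.5 normalized counts in injured cells, against 96.3, 82.9 and 42.4 in control cells. Injured CD140a(-)/Sca1(+) cells stood apart, while the injured value in CD140a(+)/Sca1(+) cells was below 2 of the 3 controls. The fold was 4.37, 1.40 and 1.88, and the limma change was 1.07 ± 0.55 (SE, 3 pairs; adjusted p = 0.655). Summed platelet markers took 0.00769%, 0.0180% and 0.00780% of the injured libraries, against 0.00278%, 0.00139% and 0.000895% of the control libraries, with Gp1bb the source of most counts. Of the 5 platelet markers, Gp9 was at 0 in every library and Pf4, Ppbp and Itga2b also in the injured CD140a(+)/Sca1(-) library. Their part in Thbs1 was not tested.

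The ratio of Thbs2 to Thbs1, both angiogenesis inhibitors, was higher in every injured sort than in its control, as a description with no test. Since each transcript gives about 1 read in 3' tag sequencing, gene length does not enter this ratio. It was 2.40, 12.3 and 10.8 in injured cells, against 1.44, 1.17 and 0.938 in control cells, where the last value has Thbs2 below Thbs1. The ratio among injured sorts was lowest in CD140a(-)/Sca1(+) cells, the sort in which it was highest among controls.

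**Figure D2:**
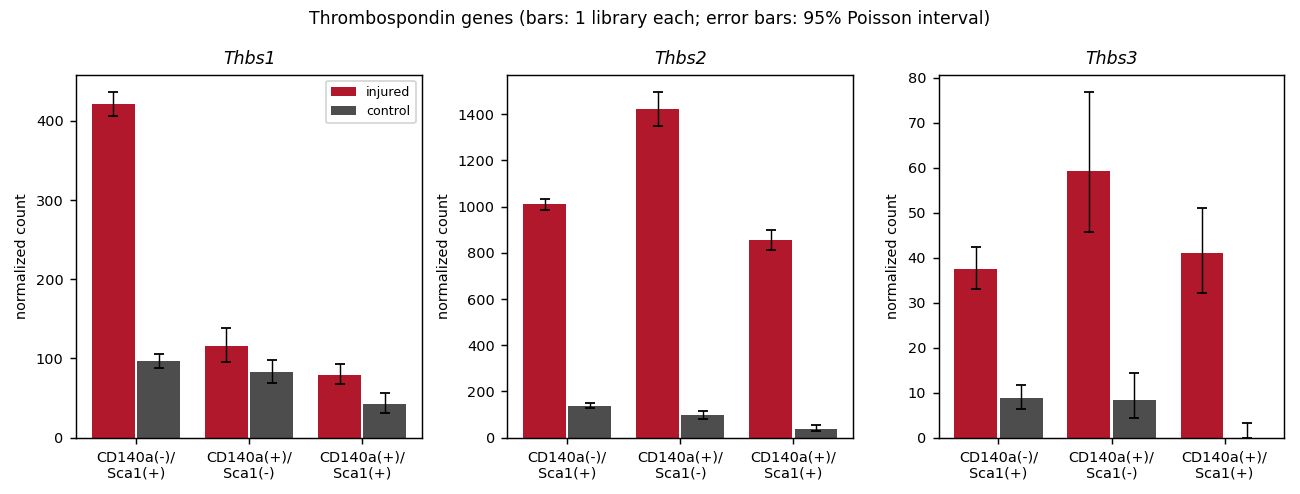
Normalized counts of Thbs1, Thbs2 and Thbs3 in the 6 libraries, injured left of control, with exact 95% Poisson intervals that cover counting error only and a vertical scale of its own for each gene. Thbs2 stood above Thbs1 in every injured library, at 1011 against 421, 1422 against 116 and 855 against 79.5.

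Thbs3 was the least abundant gene that rose. Its gene spans chr3:89215180-89226837 on the plus strand of GRCm38. Thrombospondin 3 is a pentameric member of the family, best known from mouse cartilage and bone. It stood at 37.5, 59.4 and 41.0 normalized counts in injured cells, against 8.82, 8.39 and 0 in control cells. Among injured cells the counting interval of CD140a(+)/Sca1(-) (45.8 to 76.9) lay above that of CD140a(-)/Sca1(+) (33.0 to 42.3) and overlapped that of CD140a(+)/Sca1(+), and the 2 control libraries with reads did not differ beyond theirs. The fold was 4.25 and 7.07 in the first pair of sorts and at least 15.5 in CD140a(+)/Sca1(+) cells, set against 3 reads of that control library. The limma change was 2.15 ± 0.56 (SE, 3 pairs; adjusted p = 0.461). Without the CD140a(+)/Sca1(+) pair it was 1.66, still past 3-fold, but the limma p was no longer under 0.05 and the call was lost. Thbs3 overlaps Mtx1 on the other strand and whether counting used strand is not given in the sources used here, so reads of the 2 genes may mix. Mtx1 stood at 33.6, 0 and 43.9 normalized counts in injured cells, against 29.9, 14.5 and 27.0 in control cells.

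Tnxb was the rarest of the group and did not pass the threshold. Its gene spans chr17:34670535-34719815 on the plus strand of GRCm38. Tenascin-X links collagen fibrils in tendon, skin and muscle sheaths, and its loss in humans gives a form of Ehlers-Danlos syndrome. It stood at 25.6, 0 and 4.20 normalized counts in injured cells, against 5.20, 0 and 0 in control cells. Reads were thus nearly confined to the libraries labelled CD140a(-)/Sca1(+), the 2 deepest. The fold there was 4.92, with a counting interval of 3.26 to 7.55, and in CD140a(+)/Sca1(+) cells at least 1.59 against 3 reads. In CD140a(+)/Sca1(-) cells 0 reads allowed up to 2.94 normalized counts in the injured and 1.93 in the control library, each the worth of 3 reads. The limma change was 0.83 ± 0.53 (SE, 3 pairs; adjusted p = 0.682).

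Sparc was the most abundant of the 10 in every library. The gene lies at chr11:55394500-55423183 on the minus strand (GRCm38). Osteonectin binds collagen and calcium, and loss of it in mice leaves thin collagen fibrils. It stood at 25559, 9106 and 11080.5 normalized counts in injured cells, against 3663, 7215 and 3604 in control cells. It was the 2nd, 14th and 11th most abundant gene of the injured libraries, against the 76th, 20th and 82nd place in the control libraries. No injured value overlapped a control value, yet the changes were unequal, with folds of 6.98, 1.26 and 3.07. The limma change was 1.58 ± 0.62 (SE, 3 pairs; adjusted p = 0.615), just short of the 3-fold limit of 1.58 (1.58366 against 1.58496). It passed without the CD140a(+)/Sca1(-) pair, at 2.21, and under quantile normalization, at 1.64. Without the CD140a(-)/Sca1(+) pair it was 0.98, and there, without the CD140a(+)/Sca1(+) pair and in 5 further alternatives (both pseudocounts, no filter, the filter on normalized counts and 75th percentile scaling) its limma p was not under 0.05. Of the 3 control libraries CD140a(+)/Sca1(-) held the most Sparc, and of the 3 injured libraries it held the least.

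The 10 genes together took a larger share of the injured libraries. They made up 1.49%, 0.995% and 0.751% of the injured libraries, against 0.190%, 0.388% and 0.189% of the control libraries. Sparc alone gave 82.9%, 44.5% and 68.3% of the 10-gene sum in injured cells, against 86.0%, 89.1% and 91.9% in control cells. Its portion was lower in every injured library than in its control, and lowest in injured CD140a(+)/Sca1(-) cells, where Postn and Fn1 were high. Without Sparc the sum was 5264, 11345 and 5145 normalized counts in injured cells, against 598, 886 and 317 in control cells.

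Spp1 (chr5:104435118-104441050, plus strand) and Fn1 (chr1:71585520-71653200, minus strand) both rose, and each had the same order of sorts in both states. Osteopontin is a phosphorylated integrin ligand of bone and wounds, and fibronectin is the fibril-forming adhesive glycoprotein to which tenascin-C and thrombospondin 1 bind. Spp1 stood at 178, 636 and 85.8 normalized counts in injured cells, against 13.9, 68.7 and 8.83 in control cells. Fn1 stood at 859, 2249 and 554 in injured cells, against 99.6, 401 and 89.4 in control cells. For both genes CD140a(+)/Sca1(-) was highest and CD140a(+)/Sca1(+) lowest, in injured as in control cells, although the 2 lower control values did not differ beyond their counting intervals. The fold was 12.9, 9.25 and 9.73 for Spp1 and 8.62, 5.61 and 6.20 for Fn1. In limma Spp1 changed by 2.79 ± 0.49 (SE, 3 pairs; adjusted p = 0.321). Fn1 changed by 2.64 ± 0.48 (SE, 3 pairs; adjusted p = 0.329).

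Macrophages also make osteopontin and fibronectin, so their markers are given beside these values. The 14 leukocyte and macrophage markers summed to 0.0252%, 0.0546% and 0.0166% of the injured libraries, against 0.0226%, 0.00903% and 0.00408% of the control libraries. In the injured CD140a(+)/Sca1(-) library 5 of the 14 were at 0, among them Ptprc (CD45) and C1qa, while Tyrobp stood at 222 and Cd68 at 114 normalized counts, against 0 and 5.04 in its control. Of the 14, 0, 5 and 1 were at 0 in the injured libraries and 0, 8 and 7 in the control libraries. The summed level of the 6 tendon markers was also highest in that sort, with 0.0428% of the injured and 0.0296% of the control CD140a(+)/Sca1(-) library, against 0.00578% and 0.00503% of the other injured and 0.00451% and 0.00324% of the other control libraries. Fmod stood at 640 and Tnmd at 200 normalized counts in injured CD140a(+)/Sca1(-) cells, against 426 and 160 in control cells, and these 2 genes gave most of the sum. Scx, which defines tendon cells, Chad and Kera were at 0 in the injured library, against 0.642, 12.8 and 1.28 in the control. The part of either cell type in Spp1 and Fn1 was not tested, and more cells of a type and more RNA per cell cannot be told apart in these bulk libraries.

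Ecm1 rose by the rule, with a change that depended on the sort. The gene lies at chr3:95734147-95739569 on the minus strand (GRCm38). Extracellular matrix protein 1 is a secreted glycoprotein of skin and connective tissue, and its loss in humans causes lipoid proteinosis. It stood at 94.6, 617 and 176 normalized counts in injured cells, against 81.2, 3.77 and 26.8 in control cells. CD140a(+)/Sca1(-) was the lowest control library, with 6 reads, and the highest injured one. The fold was 1.17, 164 (counting interval 73.2 to 438) and 6.59. The limma change was 2.71 ± 1.02 (SE, 3 pairs; adjusted p = 0.597), and it lost its call in 6 of 11 alternatives. It was 1.26 without the CD140a(+)/Sca1(-) pair and 2.90 without the CD140a(+)/Sca1(+) pair, neither with a p under 0.05 in limma.

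**Figure D3:**
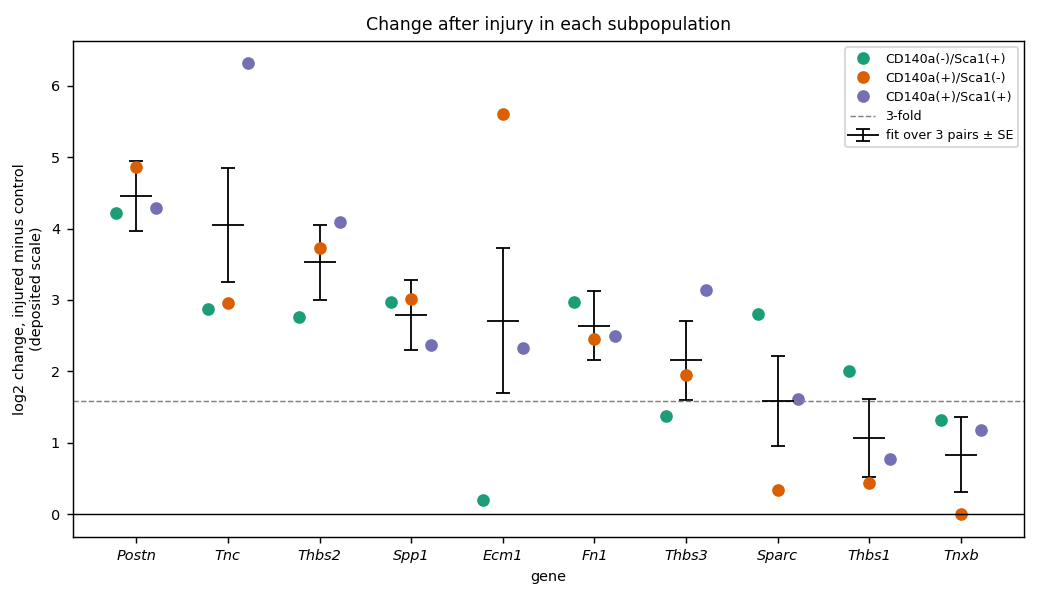
Log2 change of each of the 10 genes, injured minus control on the deposited scale, with 1 point per subpopulation and the limma estimate with its SE. The points of Postn lay between 4.22 and 4.86, while those of Ecm1 were spread between 0.20 and 5.61.

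Sorts differed in which genes changed most. On the deposited scale 7 of the 10 were at least 3-fold higher in injured CD140a(-)/Sca1(+) cells, 7 in CD140a(+)/Sca1(-) and 8 in CD140a(+)/Sca1(+) cells, and among genes tested the shares were 1.97%, 8.31% and 10.4%. There is 1 library per sort and state, so these counts have no test. Postn, Tnc, Thbs2, Spp1 and Fn1 reached 3-fold in all 3 sorts, as 0.605% of genes tested did. Sparc missed it in CD140a(+)/Sca1(-) cells, Ecm1 and Thbs3 in CD140a(-)/Sca1(+) cells, Thbs1 in both CD140a(+) sorts and Tnxb in every sort. On normalized counts, where low values are not compressed, 9 reached 3-fold in CD140a(-)/Sca1(+) cells, with Thbs3 and Tnxb added. The counts of 7 and 8 in the other sorts did not change. The share of all genes also depended on the scale. With log2(normalized count + 1), 870, 1568 and 3014 of the 15532 genes tested reached 3-fold in the 3 sorts. On the deposited scale 306, 1291 and 1615 did. Of the 10 genes, 9, 7 and 9 reached 3-fold with log2(normalized count + 1). The median change of the 10 was 2.78, 2.71 and 2.43 on the log2 scale, against -0.23, -0.76 and 0.11 for all genes tested.

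Over both states, 3 genes passed the threshold between the sorts as labelled. Each sort was compared with the mean of the other two in limma, with state as a term. Spp1 was higher in CD140a(+)/Sca1(-) by 2.08 ± 0.52 on the log2 scale (SE, 2 libraries against 4; limma adjusted p = 0.615). Fn1 was higher there by 1.82 ± 0.51 (limma adjusted p = 0.615), and on log2(normalized count + 1) its p was not under 0.05. In this contrast 0.657% of genes tested were called higher. Tnxb was higher in CD140a(-)/Sca1(+) by 1.67 ± 0.56 (limma adjusted p = 0.998), where 1.33% of genes tested were called higher, and it fell short of 3-fold at 1.36 under quantile normalization. But Tnxb passed the filter on low values only through the libraries of that sort, the deepest, and failed the filter on normalized counts. Its call is therefore no independent evidence of a difference between sorts. Postn, at 1.08 ± 0.52 in CD140a(+)/Sca1(-) cells, did not pass.

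**Figure D4:**
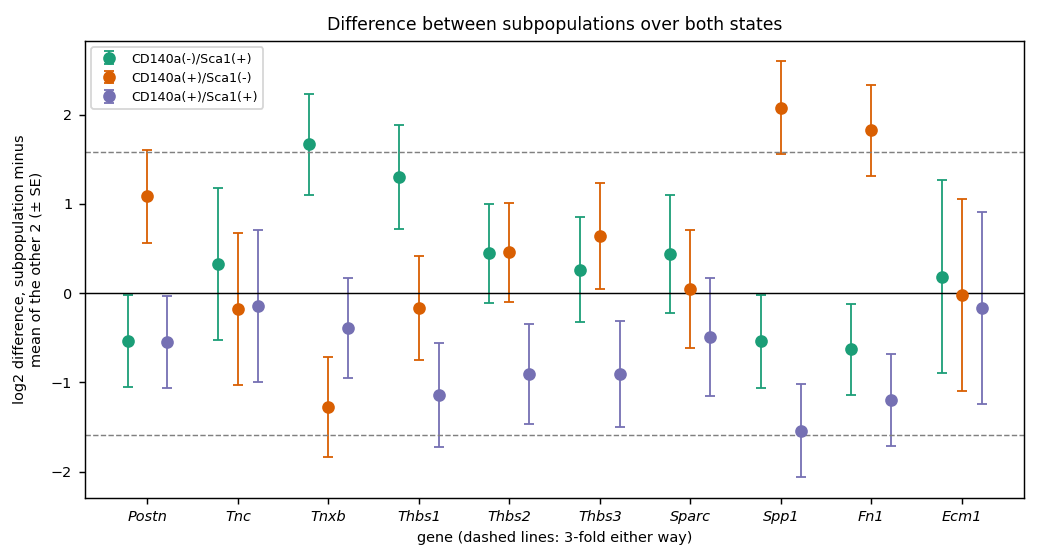
Difference of each subpopulation from the mean of the other 2 over both states, in log2 units with the SE from limma, for the 10 genes. Spp1 (2.08) and Fn1 (1.82) in CD140a(+)/Sca1(-) and Tnxb (1.67) in CD140a(-)/Sca1(+) passed the threshold. Tnxb passed the filter on low values only through the CD140a(-)/Sca1(+) libraries, the deepest.

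Some genes followed the 10 closely over the 6 libraries. Likeness is Pearson's r on the deposited log2 scale among 5527 genes that reached 100 normalized counts in some library, and it is a description, since the same libraries, depths and injury contrast enter every value. Thbs2 was followed by Slit2, a guidance ligand (r = 0.999), Bmp1, the procollagen C-proteinase (r = 0.998), and biglycan (Bgn, r = 0.996). Postn was followed by Ccn4 (r = 0.991), Mpp6 (r = 0.989) and the collagen I chain Col1a2 (r = 0.987), which stood at 23272, 26346 and 19199 normalized counts in injured cells, against 1417, 2620 and 1399 in control cells. Spp1 and Fn1 were each the other's closest gene (r = 0.994). For Tnc the closest were Anxa1 (r = 0.993) and the collagen-modifying enzyme Plod3 (r = 0.991), for Thbs3 Dclk1 (r = 0.993), for Ecm1 C3ar1 (r = 0.984), for Sparc Pappa (r = 0.983), for Thbs1 Tnpo1 (r = 0.980) and for Tnxb the endocytic receptor Lrp1 (r = 0.965). Between the 10 themselves r was lowest for Tnxb with Spp1 (0.07) and with Fn1 (0.09).

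Other matricellular and matrix genes of the same families are given for comparison. Of 31 listed, 29 were tested, 7 rose (24.1%) and none fell, where 2.30% of all genes tested rose and 3.46% fell. Their median change was 0.75 on the log2 scale, against -0.33 for all genes tested. Ccn4, a secreted CCN family protein, changed by 3.76 ± 0.48 (SE, 3 pairs; limma adjusted p = 0.206) and stood at 309, 444 and 249.95 normalized counts in injured cells, against 16.6, 20.5 and 8.05 in control cells. Asporin (Aspn) changed by 3.65, Bgn by 3.58 and fibulin-2 (Fbln2) by 3.39. The periostin relative Tgfbi, named after its values were seen, stood at 1082, 2565 and 261 normalized counts in injured cells, against 141, 346 and 35.3 in control cells (2.75 on the log2 scale). Thbs4, also named after its values were seen, changed by 2.13. In the injured CD140a(+)/Sca1(-) library 13 of the 29 tested were at 0, where 69.1% of all genes in the table were at 0.

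Of 23 cell surface receptors of these proteins tested, 2 rose (8.70%, against 2.30% of all genes tested) and none fell. Their median change was 0.42, against -0.33 for all genes tested. The syndecan Sdc1, a heparan sulfate proteoglycan that binds fibronectin, tenascin-C and thrombospondin 1, stood at 679, 1108 and 864 normalized counts in injured cells, against 110.2, 116 and 51.2 in control cells (3.15 ± 0.52 in limma; SE, 3 pairs; adjusted p = 0.289). Sdc2 changed by 2.05 ± 0.66 (adjusted p = 0.555) and lost its call at 1.84 without the CD140a(-)/Sca1(+) pair and at 1.48 without the CD140a(+)/Sca1(+) pair. The osteopontin receptor Cd44, named after its values were seen, stood at 3461, 2317 and 1479 normalized counts in injured cells, against 1637, 1034 and 423 in control cells, a change of 1.34 under the 3-fold limit. The fibronectin receptor chain Itgb1, named likewise, stood at 2374, 2511 and 1409.5 normalized counts in injured cells, against 1367, 2007 and 1309 in control cells.

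Among 40 regulators and processing enzymes, 38 were tested, 11 rose (28.9%, against 2.30% of all genes tested) and 1 fell (2.63%, against 3.46%). Their median change was 0.89, against -0.33 for all genes tested. Lysyl oxidase (Lox), which cross-links collagen, changed by 3.44 ± 0.49 (SE, 3 pairs; limma adjusted p = 0.261). Bmp1, which cleaves procollagens and prolysyl oxidase, changed by 3.38 ± 0.53 (limma adjusted p = 0.288). The gelatinase gene Mmp9 changed by 2.62, at 605, 22.6 and 330.1 normalized counts in injured cells against 204, 13.5 and 0 in control cells. Without the CD140a(+)/Sca1(+) pair the change of Mmp9 was 1.0 and without the CD140a(-)/Sca1(+) pair 3.17, neither of them called. Pdgfb fell by 1.69 on the log2 scale, at 1.32, 0 and 0 normalized counts in injured cells against 27.9, 2.57 and 15.0 in control cells. It lost its call at -1.52 without the CD140a(-)/Sca1(+) pair and at -1.49 without the CD140a(+)/Sca1(+) pair. Endothelial cells are a main source of Pdgfb, and the 9 endothelial markers took 0.00419%, 0.000508% and 0.00936% of the injured libraries, against 0.0675%, 0.0209% and 0.121% of the control libraries. Their part in the change of Pdgfb was not tested.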

How the data were processed

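The deposited table held log2 values for 22483 genes in 6 libraries, made by the authors from 3' mRNA libraries (Lexogen QuantSeq, Ion Proton). The authors aligned reads to GRCm38 (mm10, Ensembl) with STAR and normalized them with DESeq2, per the labels and the study's methods. Their lowest value, 2.57, stands for 0 reads, and their form is that of a variance stabilizing transformation, which was inverted here to normalized counts. The commonest lowest step of a library gave the size of 1 read and so the depth. Between 55.8% and 63.7% of low values, and 21 of 60 values of the 10 genes, were whole within 0.02 reads, so no count test was run.

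The injury comparison used limma 3.58.1 (R 4.3.3) on the deposited log2 values of all 6 libraries with subpopulation as block, the 3 sorts standing as replicates with 2 residual and 4.11 prior degrees of freedom. Genes were kept where the 80th percentile of the linear value was at least 8, and 15532 remained. A call needed p under 0.05 and 3-fold. Intervals are exact 95% Poisson, and a fold against 0 reads is set against 3 reads. PCR copies were not marked, so they cover counting error only. Scripts were tested on simulated data. Tables were read with Python 3.11.15.

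The 10 genes, the lists and their tests were chosen with earlier results of these data known. The 10 were named in full. From each list up to 4 called genes per direction with the largest change were named, and for each of the 10 the 3 genes with the highest r were taken. One gene that this rule takes from a list is not reported here. Lists of FAP, endothelial, leukocyte, platelet, pericyte, myogenic, Schwann, tendon and red blood cell markers were summed. FAP markers took 2.68%, 1.56% and 1.78% of the injured libraries, against 0.886%, 0.401% and 0.158% of the control libraries. In injured against control libraries, pericyte markers took 0.0256%, 0.0594% and 0.0604% against 0.0296%, 0.0602% and 0.0470%, myogenic markers 0.00376%, 0.0233% and 0.00201% against 0.00302%, 0.00212% and 0.00413%, Schwann markers 0.000338%, 0.000117% and 0.000770% against 0.00197%, 0.0915% and 0.0184%, and red blood cell markers 0.000261%, 0% and 0.0308% against 0.0310%, 0.0949% and 0.587%. In injured CD140a(+)/Sca1(-) cells the myogenic sum was Des alone, at 478 normalized counts, with the other 8 myogenic markers at 0. Des is also in the pericyte list. Alternatives changed the pseudocount, filter, scaling, trend or block, or left out a sort.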

Additional observations from a re-analysis of the deposited data

How the results depend on the processing

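Postn, Tnc, Thbs2, Spp1 and Fn1 kept their call in all 11 alternatives, and no member of the group changed direction in any. The number of the 10 that rose was 7 in the reported comparison, between 5 and 8 over the alternatives and between 5 and 7 with a sort left out. Without the replicate block 7 of the 10 and 337 genes rose. Ecm1 lost its call with log2(normalized count + 1) (3.30), with 0.5 in place of 1 (3.36), without a filter (2.71) and under 75th percentile scaling (3.13), where the limma p was not under 0.05. Over all genes, 357 rose, 181 without a filter and 183 to 456 with a sort left out. The 537 that fell were 866 with log2(normalized count + 1), 907 with 0.5 added, 245 without a filter and 1032 under 75th percentile scaling. Genes with an adjusted p under 0.05 numbered 0, 15 with a filter on normalized counts (Postn at 0.0395), 95 with a mean-variance trend and 0 to 73 with a sort left out, the 73 without the CD140a(+)/Sca1(-) pair. Adjusted p-values of Postn ran between 2.06e-06 and 0.836 over the alternatives. Genes at 3-fold higher in CD140a(-)/Sca1(+) cells were 306, 870 with log2(normalized count + 1) and 952 under 75th percentile scaling, and in CD140a(+)/Sca1(+) cells 1615 and 3014 with log2(normalized count + 1). Genes higher in CD140a(+)/Sca1(-) than in the other sorts were 102, and 193 under quantile normalization. The cause of these shifts was not tested.

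The median gene changed by -0.33 on the log2 scale, by -0.58 and -0.73 with 1 or 0.5 added to normalized counts, by -0.70 under 75th percentile scaling and by -0.14 under quantile normalization. Of all calls 39.9% were increases, against 25.8%, 21.1%, 21.1% and 47.0% in the same order. Depth limits Tnxb outside CD140a(-)/Sca1(+) cells, Thbs3 and Tnc in control CD140a(+)/Sca1(+) cells and Ecm1 in control CD140a(+)/Sca1(-) cells, each with 8 reads or fewer.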
